A study of Mus musculus with 5 samples.

Results

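Interferon-stimulated genes are the genes that cells switch on when interferon reaches them, and they encode sensors of foreign nucleic acid, proteins that block virus growth and regulators of the response. The 36 genes described here are interferon-induced effectors and sensors, and their members were found as all probe sets of the deposited array table that carry exactly 1 gene symbol from that list. Of the 36 genes, 33 had such a probe set, 49 probe sets in all, out of 18193 genes and 45037 probe sets in the table. Isg15, Ifi44 and Ifi205 had no probe set with 1 symbol and are not reported. The study measured sorted marrow progenitors of wild-type C57BL/6 mice on 5 Affymetrix mouse arrays. Of these 3 held the common dendritic cell progenitor (CDP), the marrow source of dendritic cells, sorted as negative for lineage markers and Sca-1, intermediate for c-Kit, positive for CD34, Flk2 and CD115 and negative for CD16/32. The common myeloid progenitor (CMP, 2 arrays), an earlier cell with several myeloid fates, shared the lack of lineage markers, Sca-1 and CD16/32 and the presence of CD34 and Flk2, but was high for c-Kit and lacked CD115 and CD11c. Both were sorted in a second pass, RNA came from 10000 to 30000 cells, and it was amplified over 2 cycles. The labels give no interferon treatment, age or pooling of animals. They also leave unsaid if each array is a different animal, so a p-value reflects variation among the 5 arrays, and this may be technical.

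Type I interferon binds its receptor, the kinases Jak1 and Tyk2 become active, and a complex that holds Stat2 and Irf9 binds a DNA element with a repeated GAAA core, the interferon-stimulated response element (ISRE). Interferon gamma works through a palindromic site (GAS), and other interferon regulatory factors, among them Irf8, which the series' title names, bind ISRE-like elements or, with PU.1, an ETS-IRF composite element. Stem and progenitor cells are known to keep some of these genes on without infection, and dendritic cells are known as strong producers of and responders to interferon.

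All values are log2 expression values as the authors deposited them, and log2 5 served as the detection level. Each difference is the CDP mean less the CMP mean on that scale and carries the fit's standard error (SE), and adjusted p-values are from limma with Benjamini-Hochberg adjustment over 16552 tested probe sets, with a threshold of 0.05. Of the genes that differ between the gates, Itgax, which encodes CD11c, was at 6.38 to 7.78 on the CDP arrays and 2.26 on both CMP arrays, and Kit was at 7.18 to 7.75 against 10.04 to 10.20. Csf1r, which encodes CD115, was detected in both populations on its brightest probe set, at 12.94 to 13.16 in CDP and 11.03 to 11.75 in CMP. The arrays differed in their 5′ control signal. CDP 1 and CMP 1 had low 5′ beta-actin control signal (6.54 and 6.71, against 10.52 to 12.97 on the other 3 arrays). Differences are therefore also given between these 2 arrays and among the others, as 2 kinds of array. The Gapdh control did not give the same split. Its 3′ less 5′ value was highest on CDP 3 (6.60), against 4.64 on CDP 1, 4.71 on CMP 1, 3.88 on CDP 2 and 3.22 on CMP 2. Of 12 mature neutrophil markers with a probe set, 11 were at log2 5 or above on CDP 2 and 0 on any other array.

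Among the interferon-stimulated genes, Mx1 was higher in CDP and Rtp4 was lower, and neither direction prevailed among the calls. Of the 33 genes with a probe set, 20 were tested because at least 2 arrays reached log2 5. Of these 20, 1 rose, 1 fell and 18 did not pass, where 1.67% of all 8449 tested genes were called higher in CDP and 0.473% lower (2.14% in either direction, or 1.73% of all tested probe sets). Every CDP array lay above every CMP array for 3 of the 20 (Mx1, Usp18 and Ifi35) and below for 7 (Rtp4, Oasl2, Ifitm1, Gbp3, Ifit2, Ddx58 and Ifitm2). Over all tested genes the shares were 23.7% above and 10.8% below. Differences were negative for 14 of the 20 and positive for 6, with a median of -0.57, while the median over all tested genes was 0.17 and 5121 of the 8449 were positive. The members' median was -0.31 without CDP 1, -0.35 without CMP 2, -0.33 with array weights and -0.03 over all 33 genes with no filter. The median over all tested probe sets was 0.12, and relative to it 5 of the 20 lay above and 15 below. Of the 20, 9 had an unadjusted p under 0.05, against 17.1% of all tested genes. Since these are bulk samples, fewer cells expressing a gene and less RNA of it per cell cannot be told apart. Mx1 and Usp18 passed the filter through the CDP arrays alone, and Rtp4 and Oasl2 through the CMP arrays alone, so each of these 4 had to differ in order to be tested. All 4 are among the 9 with an unadjusted p under 0.05 in limma and among the genes whose groups did not overlap. The filter thus set these counts in part. The other 13 genes were not tested, and 11 of them (Ifit1, Ifit3, Mx2, Oas2, Oas3, Oasl1, Zbp1, Stat2, Ifi203, Ifi204 and Cxcl10) stayed below log2 5 on all 5 arrays. Both calls ended when any 1 of the 5 arrays was left out.

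**Figure D1:**
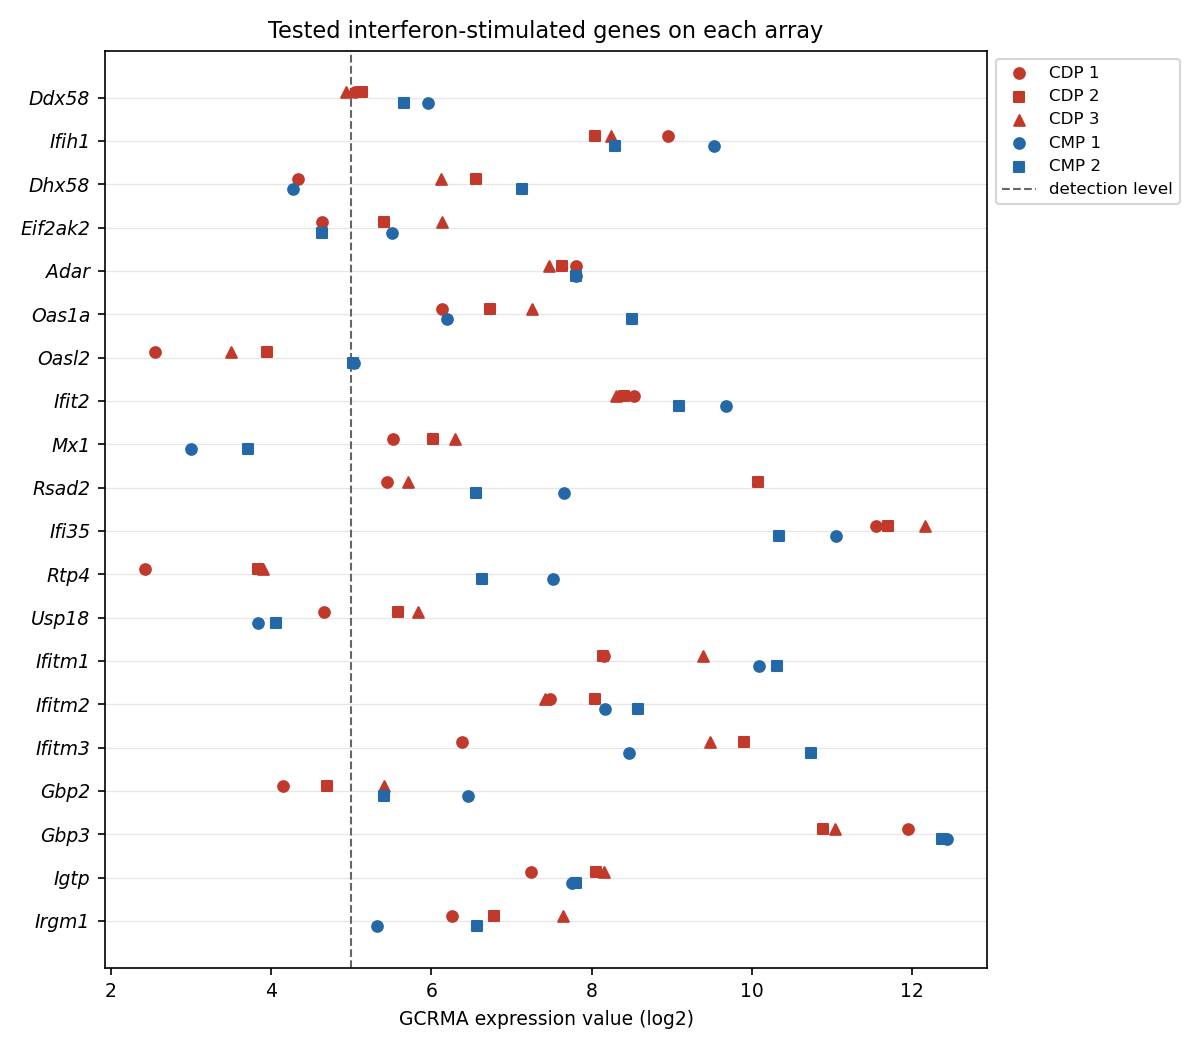
The horizontal axis gives the deposited log2 expression value of each of the 20 tested interferon-stimulated genes, 1 point per array, red for CDP and blue for CMP, with the marker shape giving the replicate and a dashed line at log2 5. Values compare arrays within a gene only, and the red and blue points stand apart for 10 genes, such as Mx1 (5.53 to 6.30 against 3.01 to 3.71) and Rtp4 (2.43 to 3.90 against 6.63 to 7.52).

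The promoters of these genes were read for the DNA elements named above, since the members share a way of being switched on. RefSeq windows on GRCm38.p6, from 250 bases before the gene start to 50 bases after it, were given for 28 of the 36 genes (Dhx58, Zbp1, Oas2, Mx1, Mx2, Rtp4, Usp18 and Ifi204 had none). Motifs were searched on both strands, and matches of different motifs may overlap. The ISRE core was searched as GAAA, any 2 bases and GAAA, the ETS-IRF composite as GGAA, any 2 bases and GAAA, and the GAS as TTCNNNGAA. The ISRE letters were in at least 1 window of 19 of the 28 genes (67.9%), against 3.99% of 27025 genes with a window. The ETS-IRF letters were in 5 (3.16% of all genes) and the GAS letters in 9 (9.55% of all genes). A match describes the letters in the window and is not shown to be a bound site.

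Stretches around the ISRE matches are shown for members that lay lower on every CDP array (Ddx58, Gbp3, Ifitm2), for 1 family member and 1 GTPase whose groups overlapped (Ifitm3, Irgm1), and for 2 members that stayed below detection (Ifit1, Ifit3). Capitals mark the letters of the ISRE matches, in either orientation, and each is written 5′ to 3′ on the strand of the gene.
Ddx58 (minus strand, chr4:40239802-40239835): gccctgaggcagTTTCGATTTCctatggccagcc
Gbp3 (plus strand, chr3:142559987-142560026): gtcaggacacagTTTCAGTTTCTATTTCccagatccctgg
Ifitm2 (minus strand, chr7:140955986-140956019): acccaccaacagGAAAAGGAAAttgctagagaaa
Ifitm3 (minus strand, chr7:141010715-141010754): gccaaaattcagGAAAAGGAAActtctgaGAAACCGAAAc
Irgm1 (minus strand, chr11:48871423-48871462): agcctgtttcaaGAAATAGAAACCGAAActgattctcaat
Ifit1 (plus strand, chr19:34640773-34640825): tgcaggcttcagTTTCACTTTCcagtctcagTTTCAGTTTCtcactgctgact
Ifit3 (plus strand, chr19:34583361-34583428): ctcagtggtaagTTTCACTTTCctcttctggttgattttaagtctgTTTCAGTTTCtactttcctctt
The letters were present among members lower in CDP, members with overlapping groups and members below detection alike. Of the 7 genes lower on every CDP array, 6 had a window and 3 of these held ISRE letters. Of the 3 genes higher on every CDP array only Ifi35 had a window, which held neither ISRE nor ETS-IRF letters. Of the 10 genes whose groups overlapped, 9 had a window and 8 held ISRE letters, and of the 16 genes not tested (the 13 above and the 3 with no probe set) 12 had a window and 8 held them. These groups are too small for a statement about the motif and expression.

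**Figure D2:**
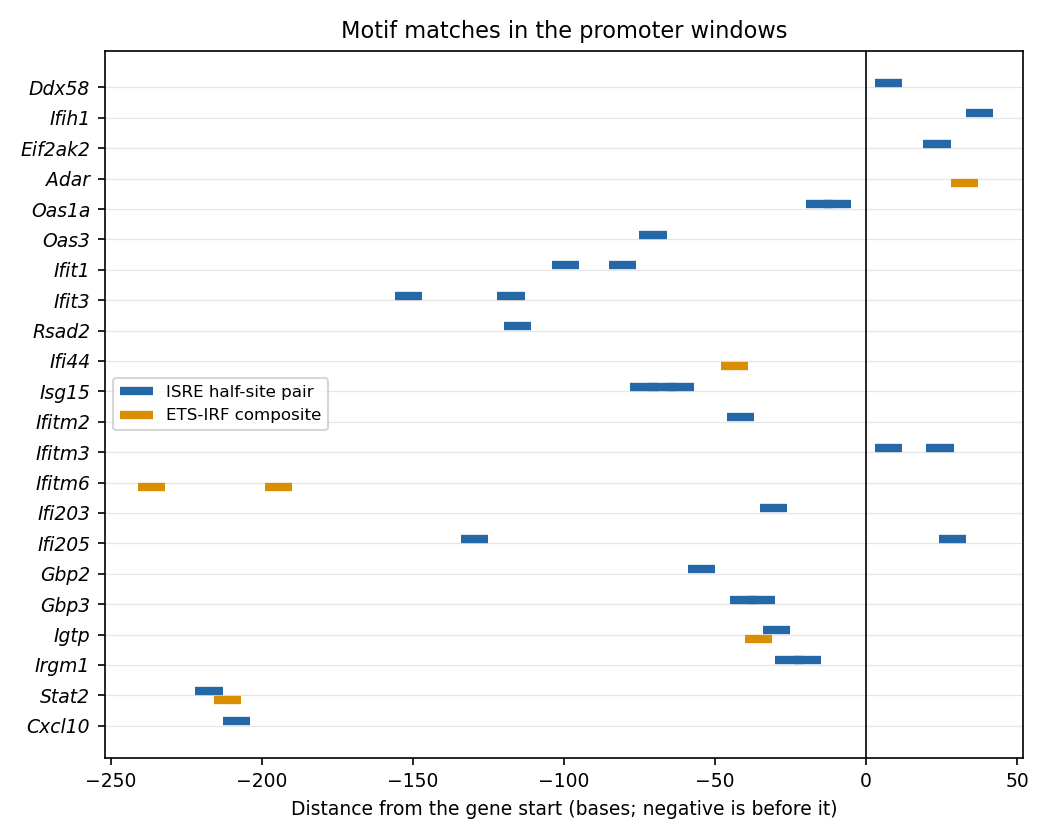
Each bar is a match of 10 bases to the ISRE letters (blue) or the ETS-IRF letters (orange), placed by its distance in bases from the gene start, for the 22 genes with at least 1 match to either. Matches lie on both sides of the start, from 241 bases before it in Ifitm6 to 42 bases after it in Ifih1.

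The sensors of foreign RNA did not pass. Ddx58, which encodes RIG-I, a sensor of viral RNA ends, was at 5.05, 5.13 and 4.94 on CDP 1, CDP 2 and CDP 3 and at 5.96 and 5.66 on CMP 1 and CMP 2. Both CMP arrays were higher than all CDP arrays, and the CDP arrays sat at the detection level. The difference was -0.77 ± 0.31 (SE, adjusted p = 0.301 by limma). The other Ddx58 probe sets were not tested and stayed at 2.26 to 2.34 on all 5 arrays. Ifih1, which encodes MDA5, a sensor of long double-stranded RNA, was detected on every array, at 8.04 to 8.95 in CDP and 8.30 to 9.53 in CMP, with overlap and a difference of -0.50 ± 0.50. Without CMP 1 that difference became 0.12. Dhx58, which encodes LGP2, a relative that modulates these sensors, split by kind of array rather than by population. It was at 4.34 on CDP 1 and 4.28 on CMP 1, against 6.56, 6.13 and 7.14 on CDP 2, CDP 3 and CMP 2, with a difference of -0.03 ± 1.01, which went from -1.46 without CMP 1 to 1.40 without CMP 2. The other Dhx58 probe sets were not tested and stayed at 2.26 on all 5 arrays. Zbp1, a sensor of Z-form nucleic acid that can trigger necroptosis, stayed between 2.53 and 2.56 on its brighter probe set.

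Eif2ak2 and Adar act on double-stranded RNA itself, and neither passed. Eif2ak2, which encodes PKR, a kinase that halts translation when it binds double-stranded RNA, was tested on 1 of its 3 probe sets, at 4.64 to 6.13 in CDP and 4.64 to 5.52 in CMP (0.32 ± 0.54). On another of its probe sets only CMP 1 reached detection (6.49, against 3.58 to 4.05 on the other 4 arrays). Adar, which edits adenosine to inosine in RNA, was the most even of the tested members on its brightest probe set alone. That probe set was at 7.81, 7.64 and 7.47 in CDP and 7.81 on both CMP arrays (-0.17 ± 0.31), with an identical deposited value on CDP 1, CMP 1 and CMP 2. Its other 2 tested probe sets were less even, at 5.18 to 6.56 (0.27 ± 0.58) and 4.79 to 6.46 (0.07 ± 0.63) over the arrays.

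Of the oligoadenylate synthetase family, whose active members make the signal that switches on RNase L, 2 of 5 genes were tested and neither passed. Oasl2 was at 5.03 on both CMP arrays and at 2.55, 3.95 and 3.50 on CDP 1, CDP 2 and CDP 3. All CDP arrays were below the detection level, which the CMP arrays only just reached, so the fold in CMP over CDP is at least 1.02, although the difference of the deposited values was -1.70 ± 0.47 (adjusted p = 0.168). With the kinds of array as a block Oasl2 passed (-1.81, adjusted p = 0.0346). That block called 1438 of all 16552 tested probe sets, against 287 without it. Oasl2 entered the test through the CMP arrays alone, with its CDP values below detection, so this pass adds no support. Oas1a was detected on all arrays, at 6.13, 6.73 and 7.25 in CDP and 6.19 and 8.51 in CMP. The 2 CMP arrays thus lay on either side of most CDP arrays, and the difference of -0.64 ± 0.73 became -1.80 without CMP 1 and 0.52 without CMP 2. Oas2, Oas3 and Oasl1 did not exceed 3.40 on any array.

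The antiviral effectors held both calls. Mx1, a dynamin-like GTPase that blocks influenza virus in the nucleus, is known to carry a deletion in C57BL/6 and most other inbred strains. Mx1 was at 5.53, 6.02 and 6.30 on CDP 1, CDP 2 and CDP 3 and at 3.01 and 3.71 on CMP 1 and CMP 2. The CDP arrays (mean 5.95 ± 0.39, SD, n = 3) were all above the detection level and the CMP arrays (3.36 ± 0.50, SD, n = 2) all below it. Mx1 rose by 2.59 ± 0.40 (SE, adjusted p = 0.0439), at least 1.93-fold once values below log2 5 are set to 5. Mx1 entered the test through the CDP arrays alone, so it had to differ in order to be tested. The call therefore adds no support beyond the values themselves. The difference was 2.52 between the 2 arrays low in 5′ signal and 2.45 among the others. Leaving out any 1 array ended the call, with adjusted p from 0.0753 without CDP 1 to 0.246 without CDP 3, while the difference stayed between 2.24 and 2.94. Its only probe set has an ID of the kind that may match several transcripts. Mx2, its relative, stayed at or below 3.04 on every array.

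Rtp4, a chaperone that carries receptors to the cell surface and also restricts some RNA viruses, was at 2.43, 3.84 and 3.90 on CDP 1, CDP 2 and CDP 3 and at 7.52 and 6.63 on CMP 1 and CMP 2. The CMP arrays (mean 7.08 ± 0.63, SD, n = 2) were above the detection level and the CDP arrays (3.39 ± 0.83, SD, n = 3) below it. Rtp4 fell by 3.69 ± 0.57 on the log2 scale (SE, adjusted p = 0.0443), at least 4.21-fold lower in CDP. Rtp4 entered the test through the CMP arrays alone, so here too the call adds no support beyond the values themselves. The difference was -5.09 between the arrays low in 5′ signal and -2.76 among the others. The call ended without any 1 array, with adjusted p from 0.0692 without CDP 1 to 0.1995 without CDP 3, and the difference ranged from -4.13 to -3.21. A second Rtp4 probe set was at 2.26, the lowest value of the table, on all 5 arrays.

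Of the Ifit proteins, which bind viral RNA and block its translation, only Ifit2 was detected. Ifit2 was at 8.53, 8.41 and 8.30 in CDP and at 9.68 and 9.10 in CMP, so all arrays detected it and every CMP array was higher. The difference of -0.97 ± 0.33 did not pass (adjusted p = 0.239), and it was -1.15 and -0.74 within the 2 kinds of array. Ifit1 stayed at 2.26 to 2.27 and Ifit3 at 2.39 to 2.84 on all 5 arrays, in windows that each held 2 ISRE matches as printed above. Ifi35, which encodes a partner of Nmi in cytokine signalling, was at 11.55, 11.70 and 12.16 in CDP and 11.06 and 10.34 in CMP on its brightest probe set. Every CDP array was higher there, with a difference of 1.11 ± 0.38 (adjusted p = 0.242). Its other 2 probe sets had the same sign, at 1.20 ± 0.35 (adjusted p = 0.180) and 1.34 ± 1.01, and the groups were apart on the first of these and overlapped on the second. The brightest probe set and the first of these have IDs of the kind that may match several transcripts. The second, with an ID not of that kind, was at 4.70, 6.89 and 6.65 in CDP and 3.32 and 6.16 in CMP (adjusted p = 0.596 by limma).

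Usp18 was the only reported member of the ISG15 system. It encodes the protease that removes the ubiquitin-like ISG15 from proteins and also dampens signalling at the type I receptor. Usp18 was at 4.66, 5.59 and 5.83 in CDP and 3.84 and 4.07 in CMP, with no CMP array and not all CDP arrays detected. The difference of 1.41 ± 0.44 did not pass (adjusted p = 0.204), and the fold was at least 1.39.

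**Figure D3:**
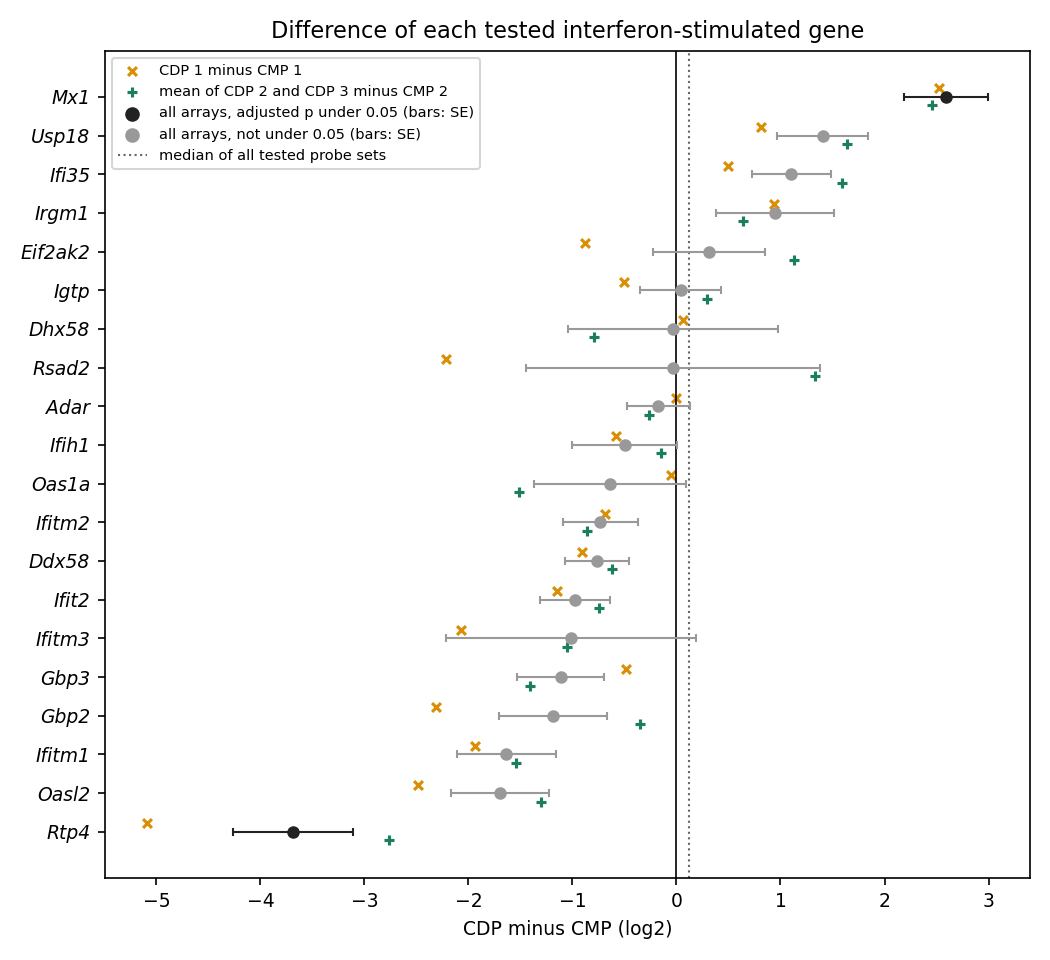
Points give CDP minus CMP (log2) for the 20 tested genes with the SE of the limma fit over 3 CDP and 2 CMP arrays, black where the adjusted p is under 0.05, with crosses for CDP 1 minus CMP 1 and plus signs for the mean of CDP 2 and CDP 3 minus CMP 2. Mx1 (2.59) and Rtp4 (-3.69) are the 2 black points, and crosses and plus signs fall on opposite sides of 0 for genes such as Rsad2 (-2.21 and 1.33) and Eif2ak2 (-0.88 and 1.13).

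The interferon-inducible transmembrane proteins, small membrane proteins that keep enveloped viruses from fusing with the cell, had negative differences in the 3 tested genes, none of which passed. Ifitm1 was at 8.15, 8.14 and 9.39 in CDP and at 10.09 and 10.31 in CMP. Every CMP array was higher, and CDP 3 was the closest CDP array. The difference was -1.64 ± 0.48 (adjusted p = 0.177), or 3.11-fold, with -1.94 and -1.54 within the 2 kinds of array. Ifitm2 was at 7.48, 8.04 and 7.42 in CDP and 8.17 and 8.58 in CMP. The groups again did not overlap, but CDP 2 lay close to CMP 1 (-0.73 ± 0.36, adjusted p = 0.396).

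Ifitm3 was at 6.38, 9.90 and 9.48 on CDP 1, CDP 2 and CDP 3 and at 8.46 and 10.74 on CMP 1 and CMP 2. Both arrays low in 5′ signal were lowest in their group, and the groups overlapped. The pooled difference was -1.02 ± 1.20 (adjusted p = 0.754), whereas it was -2.08 between the arrays low in 5′ signal and -1.06 among the others. With the kinds of array as a block it passed (-1.49, adjusted p = 0.0478). That block called 1438 of all 16552 tested probe sets, against 287 without it. The Ifitm3 difference became 0.09 without CDP 1 and 0.13 without CMP 2. Ifitm6, a member of the family found in myeloid cells, was not tested, because only CDP 2 reached detection.

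Of the interferon-inducible GTPases, which attack the membranes around intracellular microbes, none of 4 passed. Gbp3 was at 11.95, 10.89 and 11.04 in CDP and 12.44 and 12.38 in CMP. All CDP arrays were lower, with CDP 1 nearest to CMP (-1.11 ± 0.42, adjusted p = 0.275). Gbp2 had the same sign, with values of 4.15, 4.69 and 5.40 in CDP and 6.46 and 5.40 in CMP, but only CDP 3 and the CMP arrays were detected (-1.19 ± 0.52, adjusted p = 0.343). The ID of that probe set is of the kind that may match several transcripts. The other Gbp2 probe set stayed below detection, at 2.75 to 4.08. Igtp and Irgm1 belong to the immunity-related GTPases, in which the latter restrains the others. Igtp was at 7.25 to 8.15 in CDP and 7.75 to 7.80 in CMP (0.04 ± 0.39), with a sign that turned to -0.088 after quantile normalization or median scaling. Irgm1 was at 6.26, 6.78 and 7.64 in CDP and at 5.33 and 6.57 in CMP, which overlapped by CDP 1 alone (0.95 ± 0.57, adjusted p = 0.488).

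Stat2, Cxcl10, Ifi203 and Ifi204 were below detection on every array. Stat2, the transducer of type I signalling, stayed at or below 3.07 on its 2 probe sets, and Cxcl10, a chemokine that draws activated T cells, at 3.32 to 4.92. Ifi203 and Ifi204 belong to the p200 family of nuclear proteins, of which some bind DNA. Ifi203 was at 2.68 to 2.70 on its only probe set with 1 symbol. Ifi204 was at 4.44 on CDP 2 and 4.54 on CDP 3, below detection but above the 2.62 of the other 3 arrays.

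Rsad2, Ifitm6 and Isg20 had their highest value on CDP 2, the array with neutrophil transcripts, and were singled out after their values were seen. Rsad2, which encodes viperin, an enzyme that makes a chain-terminating nucleotide, was at 5.45, 10.08 and 5.71 in CDP and 7.66 and 6.56 in CMP on its brightest probe set. CDP 1 and CDP 3 lay below both CMP arrays and CDP 2 lay above them, so the difference was -0.03 ± 1.41 with all arrays and -1.53 without CDP 2 (adjusted p = 0.479). On a second Rsad2 probe set only CDP 2 was detected, at 5.82. Isg20, an RNA exonuclease, was at 5.69 on CDP 2 and at 2.74 to 3.74 elsewhere. Ifitm6 was at 7.20 on CDP 2 and at 3.36 to 4.45 elsewhere. Neutrophil markers such as S100a8, Ngp and Camp were at 12.52, 11.78 and 11.25 on CDP 2 and did not exceed 3.50 on the other arrays, and the summed log2 signal of the 12 markers above the table's lowest value was 76.2 on CDP 2, 3.26 and 3.46 on the other CDP arrays and 5.69 to 6.68 on the CMP arrays. Of 5 erythroid markers 2 were likewise at log2 5 or above on CDP 2 alone. The part of neutrophil or erythroid RNA in these 3 genes was not tested.

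**Figure D4:**
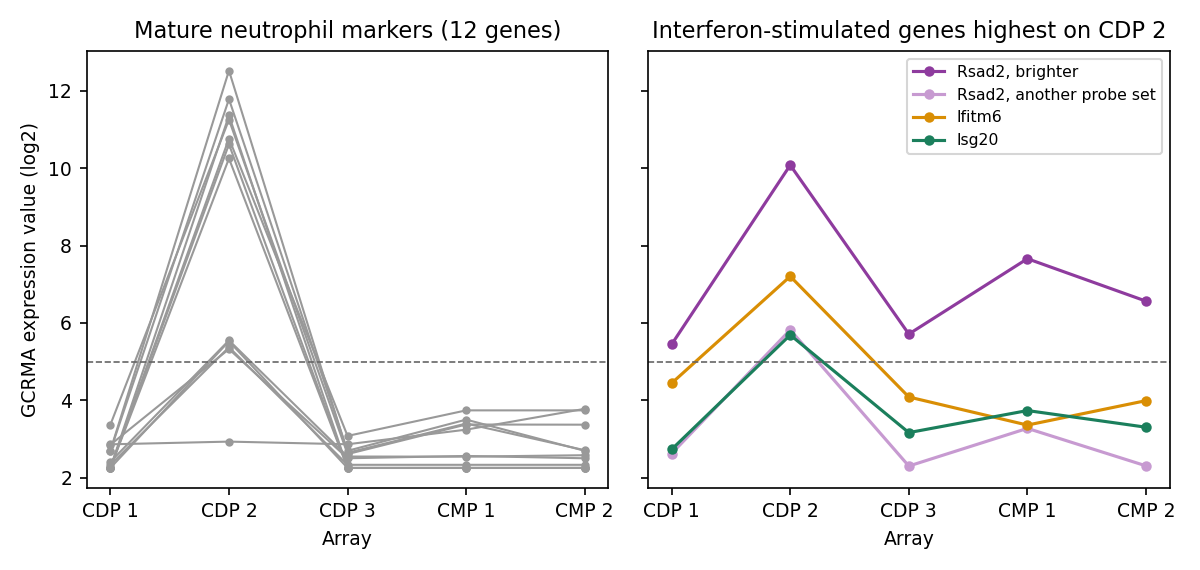
Both panels give the deposited log2 value on each of the 5 arrays, on the left for 12 mature neutrophil markers and on the right for Rsad2 (its brightest probe set and another), Ifitm6 and Isg20. Lines join the values of 1 probe set and carry no order, the dashed line is log2 5, and CDP 2 is the highest array on the right for all 4 probe sets, at 10.08, 5.82, 7.20 and 5.69.

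The other genes of the interferon pathway were taken from 4 lists of 140 genes that share no gene with the members. Of 114 with a probe set, 76 were tested, of which 2 rose (Irf5 and Ifi209), 1 fell (Socs3) and 73 did not pass, against the shares of 1.67% and 0.473% over all genes. Their median difference was 0.39, with 50 positive and 26 negative, where 5121 of all 8449 tested genes were positive and their median was 0.17. None of the 9 interferon genes with a probe set reached log2 5 on any array.

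Of the receptors and transducers 14 were tested, 1 fell and 13 did not pass. Socs3, a feedback inhibitor of Jak signalling, was at 6.29, 5.73 and 6.21 in CDP and 8.71 and 8.76 in CMP. All CDP arrays were lower, by 2.66 ± 0.33 (adjusted p = 0.0295), a 6.31-fold fall. A second tested Socs3 probe set gave -2.55 ± 0.43 and just missed the threshold (adjusted p = 0.0532), and both IDs are of the kind that may match several transcripts. A further Socs3 probe set, with an ID not of that kind, was not tested and stayed at 2.26 to 2.40 on all 5 arrays. Jak2, a kinase of the interferon gamma receptor, was at 10.41 to 10.96 in CDP and 8.66 to 9.12 in CMP (1.85 ± 0.35, adjusted p = 0.0688). Its other tested probe set was at 2.33 ± 0.40 (adjusted p = 0.0543). Ptpn6, a phosphatase that restrains Jak signalling, differed by 1.91 ± 0.55 (adjusted p = 0.174) and Tyk2 by 0.88 ± 0.39. With the kinds of array as a block Jak2 (adjusted p = 0.0220) and Ptpn6 (adjusted p = 0.0225) passed. That block called 1438 of all 16552 tested probe sets, against 287 without it. Of the receptor chains, Ifnar1 was at 7.90, 8.75 and 9.32 in CDP and 7.29 and 7.71 in CMP (1.16 ± 0.49, adjusted p = 0.324), with 0.13 ± 0.37 on its other tested probe set, and Ifngr1 differed by 0.48 ± 0.71. The brightest Ifnar2 probe set differed by 0.18 ± 0.46, while its other 2 tested probe sets gave 1.06 ± 0.36 (adjusted p = 0.231), with every CDP array above every CMP array, and 1.03 ± 0.62 (adjusted p = 0.493). Ifngr2 reached detection on CDP 1 alone (5.18). Irf9, the DNA-binding partner of Stat2, was detected on every array, at 7.09 to 8.80 in CDP and 6.46 to 7.75 in CMP (0.97 ± 0.64, adjusted p = 0.533).

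Of the genes that induce interferon 10 were tested, 1 rose and 9 did not pass. Irf5, a factor that acts downstream of Toll-like receptors, was at 9.33, 8.94 and 9.11 in CDP and 6.37 and 7.16 in CMP, a rise of 2.36 ± 0.37 (adjusted p = 0.0453) or 5.13-fold, with no overlap. Another Irf5 probe set was below detection and not tested, at 2.84 to 4.49 in CDP and 3.01 to 3.23 in CMP, with overlap. Unc93b1, which escorts endosomal Toll-like receptors, differed by 2.87 ± 0.73 (adjusted p = 0.137). It passed with the kinds of array as a block (adjusted p = 0.00595). That block called 1438 of all 16552 tested probe sets, against 287 without it. Myd88 at 0.61 ± 0.33, Trim25 at -0.86 ± 0.55 and Tbk1 at 0.66 ± 0.43 did not pass. Irf7, the factor that amplifies interferon production, stayed at or below 3.12.

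Of 52 further interferon-stimulated genes 1 rose and 51 did not pass, with 35 positive and 17 negative differences and a median of 0.39. Ifi209, a p200 family gene, was at 11.26, 11.44 and 11.73 in CDP and 9.12 and 9.05 in CMP. All CDP arrays were higher, by 2.39 ± 0.32 (adjusted p = 0.0325), a 5.23-fold rise, and a second probe set passed as well (1.98 ± 0.31, adjusted p = 0.0453). Ifi30, a thiol reductase of antigen processing, was at 3.06 ± 0.62 (adjusted p = 0.0831), Samd9l at 2.48 ± 0.51 (adjusted p = 0.0842), Znfx1 at 1.87 ± 0.43 (adjusted p = 0.107) and Slfn8 at 2.26 ± 0.52 (adjusted p = 0.108). None of these 4, picked by smallest p, passed. All had every CDP array above every CMP array, which a choice by smallest p favours. Of the 52 genes 16 had their groups apart in this direction and 6 in the other, against 23.7% and 10.8% of all tested genes. Znfx1 passed the filter through CDP 2 and CDP 3 alone, and its fold is at least 1.28. All 4 passed with the kinds of array as a block, but for Znfx1, with its CMP values below detection, that pass adds no support. The adjusted p in limma was then 0.00976 for Ifi30, 0.0271 for Samd9l, 0.0152 for Znfx1 and 0.0350 for Slfn8. That block called 1438 of all 16552 tested probe sets, against 287 without it. The calls of Irf5, Ifi209 and Socs3, like those of Mx1 and Rtp4, ended without any 1 of the 5 arrays.

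**Figure D5:**
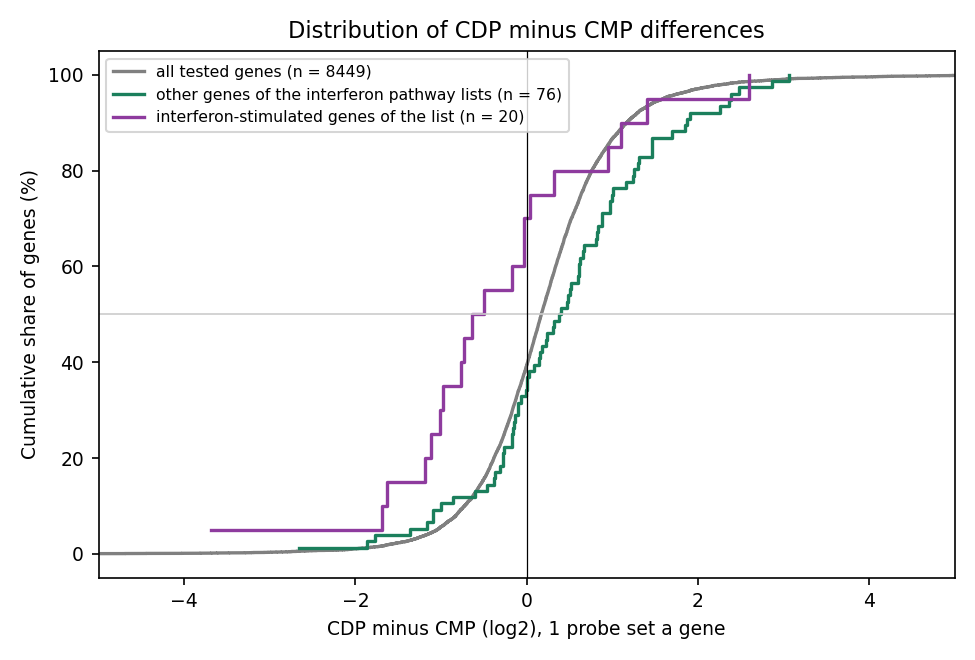
Curves give the cumulative share of genes (%) against CDP minus CMP (log2), 1 probe set per gene, for all 8449 tested genes (gray), 76 other genes of the interferon pathway lists (green) and the 20 tested interferon-stimulated genes (purple). At the 50% line the 3 curves cross at about the medians of 0.17, 0.39 and -0.57, and the difference between the curves was not tested.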

How the data were processed

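Expression was measured on 5 arrays, 3 of CDP and 2 of CMP, grouped by sample title. The deposited log2 values were made by the authors with GCRMA (version not given in the sources used here), per the submitters' processing notes. They share a lowest value of 2.26, and the number of arrays limits the precision. Of 45037 probe sets (64 controls left out), 34945 had 1 symbol in the platform annotation. Probe sets with at least 2 arrays at log2 5 (16552) were fitted in limma 3.58.1 (R 4.3.3), 2-sided, without further normalization or a block, and 0 columns were unmapped. The probe set with the highest mean stood for a gene. Where an array of the dimmer group lay below log2 5, the fold is a bound with values below 5 set to 5. Members, lists, rules and alternatives were chosen with earlier results of these data known. All members were described, and of the pathway lists the called genes, the next 4 by p, Irf9, Irf7 and the interferon receptor chains; 1 further gene of the rule is not reported here. The procedure was tested on simulated data. Alternatives covered scaling, filters, variance priors, array weights, blocks, probe set choice and left-out arrays. The marker lists for plasmacytoid and conventional dendritic cells had 1 to 3 genes at log2 5 or above on each CDP array and 0 to 2 on CMP, and those of monocytes 5 on each CDP array and 3 and 4 on CMP. Lists of B cells had 2 and 1, megakaryocytes 0 or 1 and 2, stroma 0 or 1 in both, and T and NK cells 0 throughout.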

Additional observations from a re-analysis of the deposited data

How the results depend on the processing

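The calls rest on few arrays and depend on the processing. Without any 1 array no interferon-stimulated gene and no pathway gene passed in limma (counts of 0 to 0, with 5 to 8 of the 20 at an unadjusted p under 0.05), and over all probe sets the calls went from 287 to 44 without CDP 1 and to 0 without each of the other 4. The counts of 1 higher and 1 lower became 0 and 0 with a filter at log2 4 (1 pathway gene higher), with a filter at log2 7 (where neither Mx1 nor Rtp4 was tested), with no filter (0 and 0 pathway genes) and when CDP 1 and CMP 1 were dropped together (0 and 0 pathway genes, an alternative chosen after seeing the data, with 8 of 20 at an unadjusted p under 0.05). With a trended prior 0 were higher (Mx1 at adjusted p = 0.0562), and without probe sets that may match several transcripts 0 were higher and 0 pathway genes lower. With the kinds of array as a block 3 were lower, with 13 pathway genes higher and 4 lower, and 1438 probe sets were called in all. Replicate numbers are shared between groups but the labels do not say that they pair samples (deviations correlated at 0.606 and 0.579, over only 2 pairs). With the replicate block 2 were lower, Rtp4 and Ifitm1 (-2.05, adjusted p = 0.0357), with 6 pathway genes higher (Irf5, Ifi209, Ifi30, Ptpn6, Slfn2 and Unc93b1) and 3 lower, and 608 probe sets were called; without the filter 55 were. Signs turned for Igtp (-0.0876 after quantile normalization, -0.0884 after median scaling, -0.13 with the replicate block, -0.0451 with the kinds of array as a block), Dhx58 (0.46 with array weights), Rsad2 (0.57 with array weights, 0.65 with the replicate block, 1.33 without both arrays low in 5′ signal), Eif2ak2 (-0.0538 with the replicate block) and Adar (0.0558 as the mean of its probe sets); the cause was not tested. Leaving out 1 array gave ranges of -1.46 to 1.40 for Dhx58, -0.12 to 0.76 for Eif2ak2, -1.12 to 0.12 for Ifih1, -2.16 to 0.13 for Ifitm3, -0.13 to 0.32 for Igtp, -1.80 to 0.52 for Oas1a and -1.53 to 0.78 for Rsad2.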
